A study of Mus musculus with 8 samples.

Results

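Extracellular proteolysis in the injured mouse kidney was examined through 66 genes, namely 21 matrix metalloproteinases (MMPs), 22 ADAMs, 19 ADAMTS proteases and 4 tissue inhibitors of metalloproteinases (TIMPs). They were taken by name from the 34450 genes of the deposited table, as every protein-coding gene whose mouse symbol begins with Mmp, Timp, Adam or Adamts followed by a digit. Whole-kidney poly(A) RNA came from C57BL/6J mice aged 8 weeks, on day 3 after ischaemia-reperfusion injury (IRI), in which renal blood flow is stopped and then restored. Hypoxia libraries 1 to 4 are from mice held in hypoxia ahead of the injury, and normoxia libraries 5 to 8 from mice held in normoxia ahead of it. Every kidney was injured, no uninjured kidney was analysed here, and the labels give neither the oxygen level nor the length of the exposure. They also do not state that each library is a separate mouse, so a p-value here reflects nothing beyond the spread between libraries, and that spread may be technical.

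MMPs are zinc proteases that cut collagens, laminins and other matrix proteins, and most are secreted as inactive proenzymes. ADAMs are mostly anchored in the cell membrane, where those with an active site release growth factors, cytokines and adhesion molecules from the cell surface, while ADAMTS proteases are secreted and cut proteoglycans, procollagens and von Willebrand factor. TIMPs bind the active site of these enzymes and block it. Timp3 is unusual in binding to matrix and in inhibiting several ADAM and ADAMTS proteases. In injured kidney these genes are known from tubule cells, fibroblasts and leukocytes alike, and transcript levels say nothing of how much proenzyme is activated.

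Levels are FPKM, fragments scaled to transcript length and to the mapped fragments of the library, so they are comparable between genes per length. An estimated 8430000 to 14500000 fragments stood behind each library. Ribosomal transcripts took from 13.55% (normoxia library 5) to 72.5% (normoxia library 8) of them, with 49.05% ± 22.03 (SD, n = 4) after hypoxia and 44.25% ± 28.02 (SD, n = 4) after normoxia (exact two-sided permutation p = 0.771). Normoxia library 5 was the least like the rest: its Spearman correlation with the other libraries averaged 0.633, against 0.767 to 0.832 for each of the others. Results that rest on it are given with and without it. Hypoxia libraries 1 and 2 (Spearman 0.924) and 3 and 4 (0.921) were more alike than libraries across these pairs (0.833 to 0.853), and the labels do not say whether a pair is 1 source sequenced again. They were counted as 4, so n = 4 after hypoxia could stand for 2, and an alternative averaged them in 2 pairs. The kidney markers Slc34a1 (proximal tubule) and Umod (thick ascending limb) were present in every library, at 37.57 and 120.18 FPKM or more.

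Promoter windows from RefSeq (GRCm38.p6), 250 bases before to 50 after each gene's start, were held for 42 of the 66 genes. Timp1 and Adam8 are shown because they were the members that fell. Mmp14 is shown because it is the membrane-type MMP whose groups did not overlap. Mmp13 is an example of the neighbouring MMP genes of chromosome 9 that are described further on. All are written 5′ to 3′ on the gene's own strand. Capitals mark matches to motifs searched on both strands, which are TGACTCA (AP-1 consensus), TGAGTAA (AP-1 variant), ACGTG (core of the hypoxia response element) and CAGGAAG (ETS family). The windows are chrX:20869916-20870215 (+) for Timp1, chr7:139992513-139992812 (-) for Adam8, chr14:54431348-54431647 (+) for Mmp14 and chr9:7272264-7272563 (+) for Mmp13.
Timp1: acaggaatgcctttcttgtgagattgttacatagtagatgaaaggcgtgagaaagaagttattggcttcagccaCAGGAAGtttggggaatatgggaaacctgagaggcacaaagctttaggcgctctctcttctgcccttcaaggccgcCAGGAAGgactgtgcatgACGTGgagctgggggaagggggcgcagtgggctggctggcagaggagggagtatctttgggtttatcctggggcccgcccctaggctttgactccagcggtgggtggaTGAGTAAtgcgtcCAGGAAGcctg
Adam8: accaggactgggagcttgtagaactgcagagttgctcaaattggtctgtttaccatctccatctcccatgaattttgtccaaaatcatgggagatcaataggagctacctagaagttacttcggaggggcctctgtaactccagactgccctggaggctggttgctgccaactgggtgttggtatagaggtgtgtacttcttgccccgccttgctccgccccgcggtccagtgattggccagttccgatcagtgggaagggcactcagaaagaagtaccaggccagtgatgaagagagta
Mmp14: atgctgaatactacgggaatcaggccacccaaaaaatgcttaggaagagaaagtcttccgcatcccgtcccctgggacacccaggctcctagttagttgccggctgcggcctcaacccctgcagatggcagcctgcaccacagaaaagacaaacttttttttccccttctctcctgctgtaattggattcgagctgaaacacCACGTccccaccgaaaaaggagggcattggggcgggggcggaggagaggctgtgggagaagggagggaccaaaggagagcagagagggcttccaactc
Mmp13: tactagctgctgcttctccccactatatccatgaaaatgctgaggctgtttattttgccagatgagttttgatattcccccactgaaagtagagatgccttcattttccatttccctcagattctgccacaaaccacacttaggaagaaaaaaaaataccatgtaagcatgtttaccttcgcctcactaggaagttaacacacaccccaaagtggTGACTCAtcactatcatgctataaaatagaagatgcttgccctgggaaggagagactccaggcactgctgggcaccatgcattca
The Timp1 window held CAGGAAG 3 times and ACGTG and TGAGTAA once each, the last 26 bases downstream of the start. No other member matched TGAGTAA, which 2.68% of all 32851 windows contained. ACGTG was found in 11 of the 42 member genes (26.2%) and in 19.6% of all windows, and CAGGAAG in 9 of them (21.4%) and in 13.3% of all. A member gene was counted if any of its windows matched, with 47 windows for the 42 genes. The share of all is per window, so the percentages are unlike measures. The Mmp14 window held the reverse complement CACGT once. None of the motifs occurred in the Adam8 window, which says only that these letters are not in those 300 bases. A match is a string of letters and was not tied to binding of a factor.

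Of the 66 genes, 30 had a mean of at least 0.5 FPKM over the 8 libraries and were tested: 3 TIMPs, 8 MMPs, 11 ADAMs and 8 ADAMTS genes. After hypoxia 2 of them fell, Timp1 and Adam8, against 0.602% of all 14444 genes tested. None of the 30 rose, against 0.305% of all tested genes (limma, adjusted p under 0.05 over all genes). At an unadjusted p under 0.05, 8 members were lower, against 6.84% of all genes, and 1 was higher, against 2.52%. The log2 change was below 0 in 24 of the 30 (80%), against 61.0% of all genes tested, and its median was -0.63 in the members and -0.14 in all genes. The hypoxia and normoxia libraries did not overlap in 5 members that were lower after hypoxia (Adam8, Adam12, Adamts2, Mmp2 and Mmp14), against 3.06% of all genes, nor in 2 that were higher (Adam1b and Adamts15), against 1.86%.

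**Figure D1:**
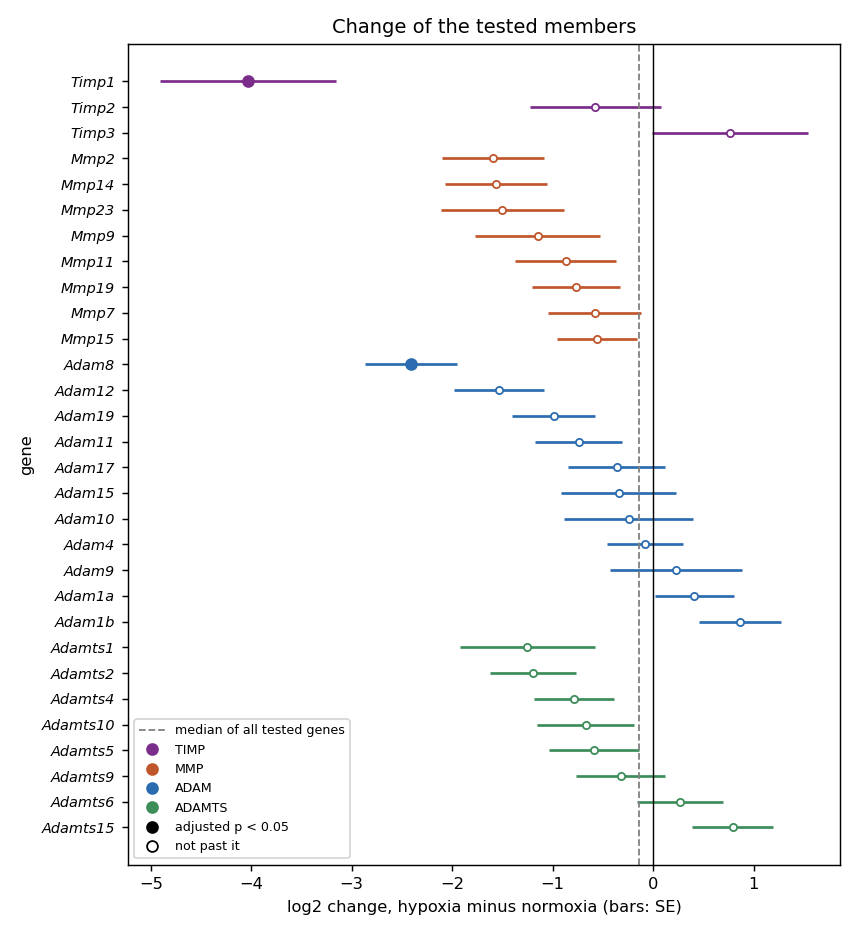
Log2 change (hypoxia minus normoxia, on log2(FPKM + 0.5), bars are the standard error of the limma fit) of the 30 tested members, by family. Filled points mark Timp1 and Adam8, the members past the threshold, all 8 MMPs lie left of 0, and the dashed line is the median of all tested genes at -0.14.

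The scale set between libraries moved these counts. With TMM scaling, which aligns the bulk of genes between libraries and moved the median log2 change of all genes from -0.14 to 0.02, 3 members were lower (Adam8, Adamts2 and Mmp14), against 1.32% of all genes. Quantile normalization gave 6 lower (Timp1, Adam8, Adam12, Adamts2, Mmp2 and Mmp14), against 2.42%. With TMM scaling and normoxia library 5 left out, 29 members were tested and 8 were lower, against 5.32%, while 1 was higher, against 5.77%. Those 8 were Timp1, Adam8, Adam12, Adam19, Adamts1, Adamts2, Mmp2 and Mmp14, and the higher one was Adamts15. With library 5 left out and no scaling, only 1 member was lower (Adam8), against 0.347% of all genes. None of the 30 was higher under TMM with all libraries or under quantile normalization.

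Timp1 encodes the secreted inhibitor that injured and inflamed tissues induce. Its gene lies on the + strand of chromosome X, from 20870166 to 20874735 (GRCm38). In library order, its levels were 8.79, 2.48, 0.27 and 0.34 FPKM after hypoxia and 220.54, 17.01, 42.39 and 7.17 FPKM after normoxia. Hypoxia libraries 3 and 4 were the lowest and normoxia library 5 by far the highest, and the groups overlapped only where hypoxia library 1 exceeded normoxia library 8. The log2 change was -4.03 ± 0.88 (SE, limma adjusted p = 0.0252), the largest fall of any of the 14444 genes tested. The lowest values rest on few fragments, an estimated 2.0 and 2.7 in hypoxia libraries 3 and 4 against 57.6 to 2683 after normoxia. Without normoxia library 5 the log2 change was -3.12 with an adjusted p of 0.125, without normoxia library 7 it was -3.91 with an adjusted p of 0.222, and with TMM scaling it was -3.97 with an adjusted p of 0.0746. The call was also lost with robust variances (adjusted p = 0.0806) and with no filter (0.487), and held with the hypoxia libraries averaged in 2 pairs.

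Timp3, the matrix-bound inhibitor, was the most abundant TIMP in 7 of the 8 libraries. It stood at 106.99, 96.75, 69.98 and 73.68 FPKM after hypoxia and at 30.52, 75.76, 82.49 and 32.96 FPKM after normoxia. Normoxia libraries 5 and 8 were the low ones and the groups overlapped (log2 change 0.76 ± 0.78 SE, adjusted p = 0.929). Timp2, which also takes part in activating proMMP-2 together with Mmp14, was at 10.18, 14.71, 5.88 and 5.94 FPKM after hypoxia and at 12.19, 12.80, 25.30 and 7.07 FPKM after normoxia, again with overlap (log2 change -0.58 ± 0.65 SE, adjusted p = 0.954). Timp4 did not exceed 0.10 FPKM in any library and was not tested.

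**Figure D2:**
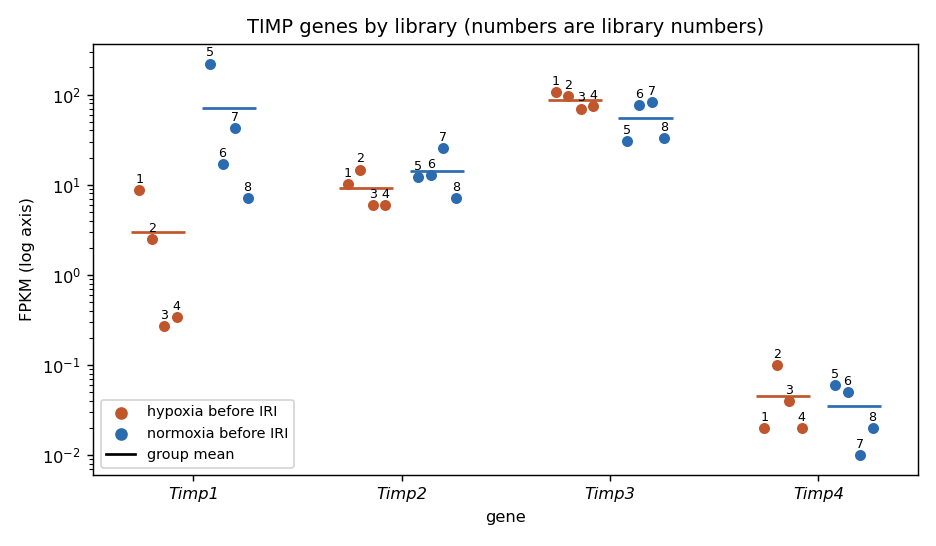
FPKM (log axis) of the 4 TIMP genes in each library, with library numbers beside the points and the group mean as a line. Timp1 spans 0.27 to 220.54 FPKM while Timp3 stays between 30.52 and 106.99 FPKM in all 8 libraries.

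Expressed as a share of the summed TIMP FPKM, a measure that needs no scaling between libraries, Timp1 made up 6.98%, 2.18%, 0.354% and 0.425% after hypoxia and 83.8%, 16.1%, 28.2% and 15.2% after normoxia. On this measure the groups did not overlap. The means were 2.48% ± 3.11 (SD, n = 4) and 35.8% ± 32.5 (SD, n = 4), the normoxia mean was 19.8% without library 5, and the hypoxia mean was 0.985% without library 1. Timp3 held 84.8% to 92.1% of the TIMP sum after hypoxia and 11.6% to 71.7% after normoxia. Shares of the same sum are bound to each other, so this is not a difference separate from that of Timp1. The FPKM levels of Timp3 overlapped between the groups. These shares are a description, since Timp1 was known from earlier results to differ.

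**Figure D3:**
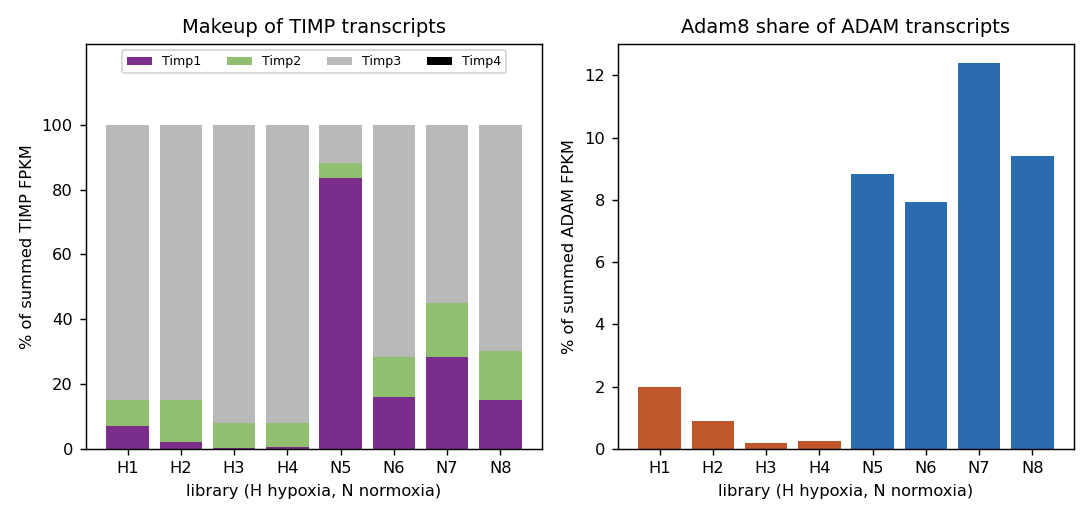
Left, percentage of the summed TIMP FPKM held by each TIMP gene in each library. Right, percentage of the summed ADAM FPKM held by Adam8. Both Timp1 and Adam8 have smaller shares in every hypoxia library (H1 to H4) than in any normoxia library (N5 to N8).

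No MMP passed the threshold as deposited. All 8 tested MMPs had a log2 change below 0, with a median of -1.01, and all 8 were also below 0 under TMM scaling (median -0.98) and quantile normalization (median -0.89). The summed FPKM of the 21 MMPs was 12.44, 13.41, 3.68 and 3.94 after hypoxia and 37.98, 12.61, 41.84 and 13.68 after normoxia. Only normoxia libraries 5 and 7 were clearly above the rest, and the groups overlapped. Ribosomal transcripts took 13.55% and 28.0% of the fragments in these libraries, against 62.95% and 72.5% in normoxia libraries 6 and 8. FPKM is scaled to all mapped fragments, so a high ribosomal share lowers the FPKM of other genes. Its part in the layout of this sum, and of single MMPs with the same layout, was not tested.

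Mmp14 is the membrane-type protease that cuts fibrillar collagen and activates proMMP-2. Its levels were 1.77, 2.67, 0.75 and 0.85 FPKM after hypoxia and 5.94, 3.86, 7.96 and 3.44 FPKM after normoxia, so that every normoxia library was above every hypoxia library. The log2 change was -1.57 ± 0.51 (SE, adjusted p = 0.171), with an adjusted p of 0.0261 under TMM scaling and 0.0122 under quantile normalization. Its substrate in that step, the gelatinase Mmp2, had 1.25, 1.14, 0.35 and 0.70 FPKM after hypoxia against 6.10, 1.98, 7.34 and 1.39 FPKM after normoxia. The Mmp2 groups did not overlap either, although hypoxia library 1 and normoxia library 8 came close (log2 change -1.59 ± 0.51 SE, adjusted p = 0.163). Its adjusted p was 0.0787 under TMM scaling and 0.0466 under quantile normalization. It was 0.0476 without normoxia library 8, but 0.0868 to 0.493 with any other single library left out.

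The other gelatinase, Mmp9, which neutrophils, macrophages and tubule cells can make, was split within the hypoxia group. It was at 4.29 and 2.85 FPKM in hypoxia libraries 1 and 2, at 0.03 FPKM in library 3 and listed at 0 in library 4, while the normoxia libraries had 1.78, 1.34, 5.27 and 3.77 FPKM. Hypoxia libraries 1 and 2 thus lay inside the normoxia range and libraries 3 and 4 below it (log2 change -1.15 ± 0.63 SE, adjusted p = 0.636). That order is not particular to Mmp9. Libraries 1 and 2 were both above 3 and 4 in 21 of the 30 tested members and in 79.1% of all tested genes. Mmp9 took 34.5% and 21.3% of the MMP sum in hypoxia libraries 1 and 2, 0.815% and 0 in libraries 3 and 4, and 4.69% to 27.6% after normoxia.

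Mmp23, a membrane-tethered family member, had a mean of 3.67 FPKM over all libraries and 2.10 FPKM without normoxia library 5 (Mmp14 3.41 and 3.04 FPKM). Its levels were 1.42, 2.14, 0.64 and 0.51 FPKM after hypoxia and 14.68, 1.73, 7.31 and 0.92 FPKM after normoxia. Normoxia libraries 5 and 7 carried that difference and the others overlapped with hypoxia (log2 change -1.5 ± 0.61 SE, adjusted p = 0.361, and -0.91 with an adjusted p of 0.700 without library 5). Mmp11, a stromelysin of fibroblasts, showed the same layout at 1.67, 0.79, 0.33 and 0.55 FPKM against 3.64, 0.61, 4.22 and 0.76 FPKM (log2 change -0.87 ± 0.51 SE, adjusted p = 0.691, and -0.59 without library 5). Mmp19, Mmp15 and Mmp7 had means of 0.503 to 0.851 FPKM and log2 changes between -0.76 and -0.56, none past the threshold.

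**Figure D4:**
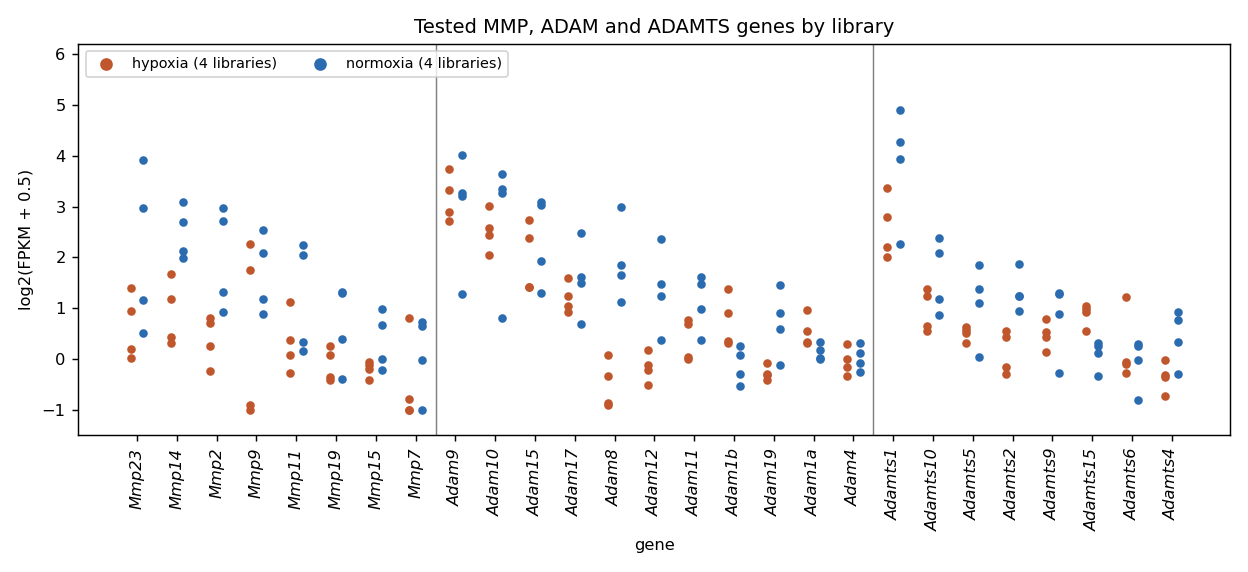
Levels as log2(FPKM + 0.5) of the 27 tested MMP, ADAM and ADAMTS genes, ordered by mean within each family, 1 point for each library. The groups separate for Adam8, Mmp14 and Adamts2, and overlap for abundant genes such as Adam9 and Adam10.

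On the + strand of chromosome 9, between 7272514 and 7699585 (GRCm38), lie 8 of the MMP genes analysed here, in the order Mmp13, Mmp12, Mmp3, Mmp10, Mmp8, Mmp27, Mmp20 and Mmp7. They include the collagenases Mmp13 and Mmp8, the stromelysins Mmp3 and Mmp10 and the macrophage elastase Mmp12. All 8 were low, with means from 0.0075 to 0.503 FPKM, and only Mmp7 reached the level needed for the test. Their summed FPKM was 0.78, 2.24, 0.19 and 0.04 after hypoxia and 1.79, 1.60, 5.17 and 1.36 after normoxia, with overlap through hypoxia library 2. What most of these genes share is in their promoters. The consensus TGACTCA, printed in capitals in the Mmp13 window above beginning 35 bases upstream of the start, occurred in 5 of the 8 (Mmp13, Mmp12, Mmp3, Mmp10 and Mmp7). It occurred in none of the 8 other MMP genes for which a window was held, in 7 of the 42 member genes with a window (16.7%) and in 5.2% of all windows. Here too the members are counted per gene and the share of all per window.

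Adam8 encodes a membrane protease of leukocytes and inflamed tissue that cuts adhesion molecules. The gene lies on the - strand of chromosome 7, from 139978932 to 139992562 (GRCm38). Its levels were 0.56, 0.29, 0.03 and 0.05 FPKM after hypoxia and 1.67, 2.66, 7.41 and 3.08 FPKM after normoxia. Each normoxia library was above each hypoxia library, and normoxia library 7 was the highest. The means were 0.233 ± 0.248 and 3.71 ± 2.54 FPKM (SD, n = 4 each), and the log2 change was -2.41 ± 0.46 (SE, limma adjusted p = 0.0131). An estimated 1.2 to 31.2 fragments lay behind the hypoxia values and 106 to 498 behind the normoxia values. The call held without normoxia library 5 (log2 change -2.67, adjusted p = 0.0199) and under TMM scaling, but without normoxia library 7 the log2 change was -2.05 with an adjusted p of 0.0639. It was also lost with the hypoxia libraries averaged in 2 pairs (adjusted p = 0.138) and with no filter (0.294).

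As a share of all ADAM FPKM, Adam8 made up 0.171% to 2.0% after hypoxia and 7.92% to 12.4% after normoxia, and normoxia library 5, with 8.83%, lay inside the normoxia range. Adam12 and Adam19, proteases known from mesenchymal cells, also had smaller shares in every hypoxia library, at 0.607% to 2.25% against 4.23% to 7.74% for Adam12 and at 0.941% to 1.71% against 2.22% to 4.08% for Adam19. Adam12 was at 0.63, 0.20, 0.36 and 0.42 FPKM after hypoxia and 0.80, 1.86, 4.63 and 2.27 FPKM after normoxia. Its groups did not overlap but normoxia library 5 was near the hypoxia libraries (log2 change -1.53 ± 0.45 SE, adjusted p = 0.105). For Adam19 the levels were 0.45, 0.31, 0.30 and 0.25 FPKM against 0.42, 1.37, 2.26 and 1.01 FPKM, and normoxia library 5 fell among the hypoxia libraries (log2 change -0.99 ± 0.41 SE, adjusted p = 0.391). With TMM scaling and library 5 left out, the adjusted p was 0.0112 for Adam12 and 0.0161 for Adam19. With library 5 left out and no scaling, the adjusted p was 0.0509 for Adam12 and 0.107 for Adam19, neither past the threshold.

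The general sheddases did not pass the threshold. Adam10, which cuts Notch receptors and cadherins, was at 5.50, 7.59, 3.65 and 4.94 FPKM after hypoxia and 1.26, 9.16, 11.99 and 9.65 FPKM after normoxia (log2 change -0.24 ± 0.64 SE, adjusted p = 0.999, and -0.89 with an adjusted p of 0.600 without library 5). Normoxia library 5 was the lowest of all 8 libraries and the other 3 normoxia libraries were above every hypoxia library, so this library sets the overlap. Adam17, which releases tumour necrosis factor and ligands of the EGF receptor, had 2.53, 1.87, 1.41 and 1.55 FPKM against 1.10, 2.32, 5.08 and 2.57 FPKM (log2 change -0.36 ± 0.49 SE, adjusted p = 0.982), and its groups overlapped. Its share of the ADAM sum was 7.52% ± 1.41 and 7.27% ± 1.17 (SD, n = 4 each).

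Adam9 was the most abundant ADAM on average, at 9.53, 12.79, 6.10 and 6.90 FPKM after hypoxia and 1.94, 8.71, 15.74 and 9.10 FPKM after normoxia, with overlap (log2 change 0.22 ± 0.66 SE, adjusted p = 0.999). Without normoxia library 5 the direction turned, to a log2 change of -0.33 (adjusted p = 0.944). Its share of the ADAM sum was 32.7% to 38.8% after hypoxia and 10.2% to 27.8% after normoxia. Adam15, a sheddase of endothelium and epithelium, had 4.74, 6.16, 2.16 and 2.17 FPKM against 7.62, 3.29, 7.96 and 1.97 FPKM (log2 change -0.34 ± 0.58 SE, adjusted p = 0.998). Adam11, which lacks the catalytic site, had a log2 change of -0.74 ± 0.44 (SE, adjusted p = 0.699).

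Adam1b ran the other way, at 0.77, 0.75, 1.37 and 2.10 FPKM after hypoxia and 0.19, 0.69, 0.31 and 0.55 FPKM after normoxia. Every hypoxia library was above every normoxia library (log2 change 0.87 ± 0.41 SE, adjusted p = 0.507). Its neighbour Adam1a shares 63.7% of its exonic bases with Gm42878 and 24% with Mapkapk5 on the same strand, so its value is uncertain. The 10 ADAMs classed as reproductive or other are known mainly from testis, and 7 of them were below the level tested.

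Adamts1, a proteoglycan-cutting protease, was the most abundant ADAMTS gene. It was measured at 9.82, 6.43, 3.5 and 4.11 FPKM after hypoxia and at 4.33, 14.87, 29.31 and 18.79 FPKM after normoxia. Normoxia libraries 6, 7 and 8 were above all hypoxia libraries and library 5 was among them (log2 change -1.25 ± 0.67 SE, adjusted p = 0.625). With library 5 left out and no scaling, the log2 change was -1.78 with an adjusted p of 0.1955. With TMM scaling as well, the adjusted p was 0.0140. Adamts2, which removes the amino-terminal propeptide of procollagen, had 0.84, 0.96, 0.31 and 0.39 FPKM after hypoxia and 1.85, 1.86, 3.13 and 1.42 FPKM after normoxia. The Adamts2 groups did not overlap (log2 change -1.19 ± 0.43 SE, adjusted p = 0.239, and 0.0296 under TMM scaling). Adamts10, which acts on fibrillin microfibrils, had 2.11, 1.87, 1.06 and 0.97 FPKM against 3.74, 1.78, 4.74 and 1.31 FPKM, with overlap (log2 change -0.67 ± 0.48 SE, adjusted p = 0.822).

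Adamts15, another proteoglycanase, was higher in every hypoxia library than in any normoxia library, at 1.49, 1.57, 0.97 and 1.39 FPKM against 0.59, 0.75, 0.69 and 0.29 FPKM. The log2 change was 0.79 ± 0.40 (SE, adjusted p = 0.576), and 1.0 with an adjusted p of 0.0444 with TMM scaling and normoxia library 5 left out. With library 5 left out and no scaling, the log2 change was 0.80 with an adjusted p of 0.403. Its share of the ADAMTS sum was 8.19% to 13.7% after hypoxia and 1.05% to 4.43% after normoxia. Adamts4, Adamts5, Adamts9 and Adamts6, the remaining tested genes of the family, had log2 changes from -0.79 to 0.27 and overlapping groups.

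The 36 members below the level tested comprised 13 MMPs, 11 ADAMs, 11 ADAMTS genes and Timp4. Their highest mean was 0.485 FPKM (Mmp3) and their highest single value 1.70 FPKM (Mmp3 in normoxia library 7). Of all 66 genes, 19 were listed at 0 in 4 or more libraries, and Adam6a and Adam6b were listed at 0 in all 8.

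Genes that control or receive this proteolysis were taken as 4 lists, chosen like the members with earlier results known. Among the regulators, Plaur, the urokinase receptor on which plasminogen activation at the cell surface depends, was at 2.62, 2.68, 0.48 and 0.35 FPKM after hypoxia and 9.88, 4.71, 14.96 and 3.52 FPKM after normoxia. Its groups did not overlap (log2 change -2.17 ± 0.59 SE, adjusted p = 0.0777).

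Of 21 membrane proteins shed by ADAM10 or ADAM17, 17 were tested (median log2 change -0.32, against -0.14 in all genes). Among them 1 fell, against 0.602% of all genes, and none rose, against 0.305%. That gene was Cd44, the hyaluronan receptor, at 1.95, 0.78, 0.41 and 0.24 FPKM after hypoxia and 1.63, 6.48, 15.81 and 7.44 FPKM after normoxia. Hypoxia library 1 was above normoxia library 5, and the other libraries did not overlap (log2 change -2.46 ± 0.57 SE, adjusted p = 0.0356). Havcr1, the tubular injury molecule KIM-1 that is itself shed, had a log2 change of -3.37 ± 0.94 (SE, adjusted p = 0.0855).

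None of the 17 tested matrix substrates passed the threshold (median log2 change -0.79, against -0.14 in all genes), and 5 were lower under TMM scaling, against 1.32% of all genes. The smallest p-values were those of the fibrillar collagen genes Col1a1 (log2 change -2.48 ± 0.70 SE, adjusted p = 0.0882) and Col5a1 (log2 change -1.64 ± 0.52 SE, adjusted p = 0.153). Of 8 tested other metalloproteases, 1 rose, against 0.305% of all genes, and none fell, against 0.602% (median log2 change 0.63). The gene that rose was Mep1b, the beta subunit of meprin in the brush border of the proximal tubule, at 30.17, 18.30, 5.73 and 7.82 FPKM after hypoxia and 1.95, 0.73, 0.17 and 0 FPKM after normoxia. Its groups did not overlap (log2 change 3.71 ± 0.60 SE, adjusted p = 0.00306). Bmp1, the procollagen C-proteinase, had a log2 change of -1.5 ± 0.50 (SE, adjusted p = 0.187).

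The marker sums of several cell types differed between the groups alongside Timp1 and Adam8. For the counts that follow, 0.602% of all tested genes were lower as deposited and 1.32% under TMM scaling. The 6 injured-tubule markers summed to 7.81 to 128 FPKM after hypoxia and 233 to 624 FPKM after normoxia, and 3 of them fell (Cd44, Krt20 and Sox9). In normoxia library 5, Lcn2 made up 206.58 of the summed 298.78 FPKM. Havcr1, Cd44 and Vcam1 were higher in hypoxia library 1 than in that library, while the groups did not overlap for Lcn2, Krt20 and Sox9. The 10 macrophage and monocyte markers summed to 20.4 to 106 FPKM and 130 to 799 FPKM, and none passed the threshold, although 3 were lower under TMM scaling. For 8 fibroblast and pericyte markers the sums were 27.9 to 59.5 FPKM and 99.2 to 302 FPKM, with none past the threshold and 3 lower under TMM scaling. These markers did not move together. The most abundant, Acta2, Col1a1 and Col3a1, had log2 changes of -2.07, -2.48 and -2.23. Dcn (0.34) and Pdgfra (0.15) were the only ones above 0. The proliferation markers summed to 0.79 to 6.65 FPKM and 9.66 to 50.9 FPKM, and 3 of 4 fell.

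Neutrophil markers used here numbered 9, of which 3 were tested and none passed. Their sum was 0.06 to 3.98 FPKM after hypoxia and 2.83 to 71.6 FPKM after normoxia, with the highest value in normoxia library 7. Adam8 and Mmp9 were also highest in that library, but so were 19 of the 30 tested members in all. The injured-tubule, fibroblast, proliferation and endothelial sums peaked there too. The granule genes Mpo and Camp were listed at 0 in 7 libraries and Elane in all 8. Endothelial markers (21.7 to 39.7 against 16.9 to 47.1 FPKM) overlapped, and none passed. Proximal tubule markers summed to 370 to 602 FPKM after hypoxia and 91.6 to 613 FPKM after normoxia (median log2 change 0.89). None of the 6 passed, and 3 were higher with TMM scaling and library 5 left out, against 5.77% of all genes. For the thick ascending limb the sums were 357 to 1620 FPKM and 148 to 551 FPKM (median 1.19). None of 4 passed as deposited, while 2 were higher under TMM scaling, against 1.21% of all genes. The part of any cell type in the differences of the members was not tested, and in whole kidney fewer cells of a type and less RNA per cell cannot be told apart.

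**Figure D5:**
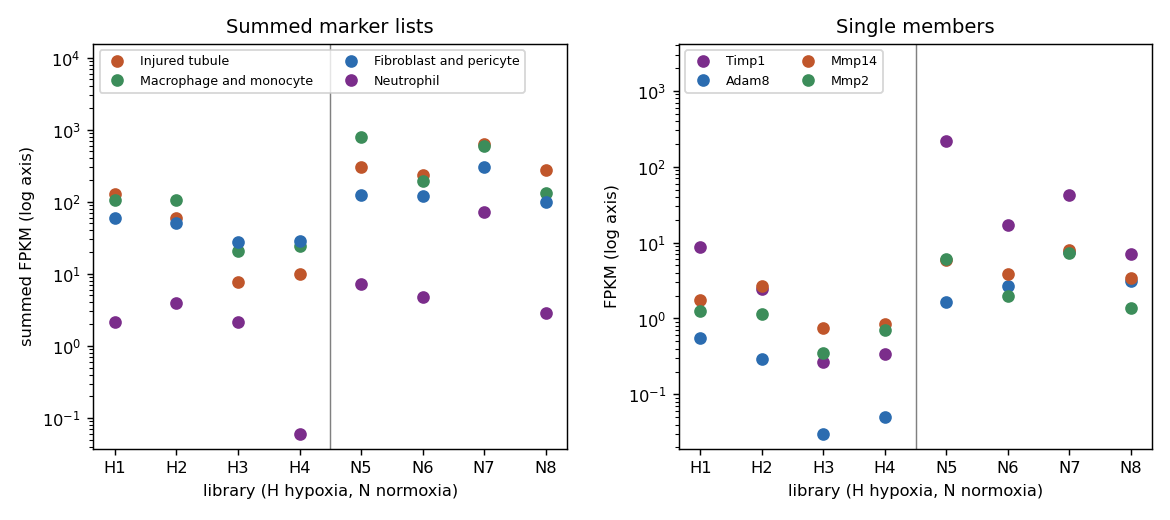
Summed FPKM of 4 marker lists (left) and FPKM of 4 members (right) in each library, on log axes, hypoxia libraries H1 to H4 left of the grey line and normoxia libraries N5 to N8 right of it. The injured-tubule, macrophage and fibroblast sums are lower in every hypoxia library than in any normoxia library, as are Adam8, Mmp14 and Mmp2.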

How the data were processed

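The authors deposited 1 table of FPKM per gene and library, per the file headers, with no recorded scaling between libraries. The submitters' processing notes list the tools HISAT2, StringTie and edgeR, without versions or roles. Which build and annotation were used is not given in the sources used here. Per the labels' protocols, RNA came from flash-frozen kidney by Trizol, with stranded poly(A) libraries. All 34450 Ensembl identifiers matched GENCODE M21 (GRCm38), the source of symbols, lengths and coordinates.

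Values were tested as log2(FPKM + 0.5) in the 14444 genes with a mean of at least 0.5 FPKM, with limma 3.58.1 (R 4.3.3, moderated two-sided test, variance trend, not robust), the 2 groups as the only factor and Benjamini-Hochberg adjustment over all tested genes at 0.05. Each adjusted p is from limma. The added 0.5 makes the change of a low gene look smaller than it is. On simulated data for this comparison (14444 genes) the step found 30 of 100 genes given a log2 change of 2 and 68 of 100 given a log2 change of 3. Among its 108 calls 10 were false and 0 of the changed genes had the wrong sign. The simulated noise was normal and independent for each gene and library. It held no scale shift between libraries, no outlying library, no libraries alike in pairs and no values at 0. These rates may therefore not carry over to the real libraries. Depth was estimated from the spacing of low FPKM values, as an approximation, and estimated fragments are FPKM times exon length times that depth. Ribosomal transcripts are annotated rRNA genes and an overlapping locus. TMM factors were computed from the published formula as a scaling only.

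The members and lists were chosen with earlier results of these data known. Members named with values were those past the threshold here or under a scaling alternative (TMM, quantile, protein-coding sum, TMM without normoxia library 5), all TIMPs, tested members with a mean of at least 2 FPKM and the smallest p of each subfamily. From the other lists they were genes past the threshold and the 2 smallest p. Other genes named were chosen after their values were seen. Some results of the regulator and marker lists are not reported here. Nothing used here states whether counting was by strand, so exonic overlaps on the opposite strand (21.3% of Timp3 with Syn3, 20.6% of Adam15 with 4731419I09Rik, 5.58% of Mmp11 with Chchd10, 4.35% of Adam17 with Iah1) leave those values less certain. Alternatives were other pseudocounts, filters, scalings and variance models, each library left out, and hypoxia libraries averaged in 2 pairs.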

Additional observations from a re-analysis of the deposited data

Results flagged for a closer look

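Among the 4 normoxia libraries, Adam10 in library 5 was 1.26 FPKM, against 9.16 to 11.99 FPKM in the others. On the log2 scale used for the limma test, its gap to the nearest was 0.869 of the whole range. That is above Dixon's critical value for 4 samples. The flag holds for that log2 scale only and not for the FPKM values as printed. This Adam10 value was the only one flagged in 42 group tests of the named members, of which chance flags about 1 in 20. Library 5 also had the lowest mean correlation with the other libraries.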

How the results depend on the processing

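The count of members lower after hypoxia, 2 as reported, was 0 with no filter on the mean (0 of all genes too). It was 1 with a filter of 2 FPKM, which leaves Adam8 untested (0.933% of all genes). Quantile normalization gave 6 (2.42% of all genes) and robust variances gave 1 (Adam8, 0.852%). Library weights gave 11 (8.98%), with an estimation that stopped before its tolerance. Averaging the hypoxia libraries in 2 pairs gave 1 (Timp1, 0.0346%). TMM scaling with normoxia library 5 left out gave 8 (5.32%). Leaving out single libraries gave 0 to 3, with 1 without normoxia library 5 (0.347% of all genes) and 0 without normoxia library 7 (0.0284%). There were 3 without normoxia library 8 (1.63%) and 2 without any other library (0.302% to 1.43%). Members higher numbered 1 with TMM scaling and normoxia library 5 left out (5.77% of all genes). They numbered 0 in every other setting run (0 to 2.49% of all genes). Members whose groups do not overlap, 7 as reported, numbered 2 with the filter of 2 FPKM, 12 with TMM scaling and library 5 left out, and 7 to 13 with single libraries left out, the highest without library 5. The share over all genes was not taken in these settings. Groups separate more easily once a library is left out, so these counts cannot be set against the 7. The log2 change of Adam9 turned to -0.19 with library weights and -0.041 with TMM scaling and library 5 left out, and ranged from -0.33 to 0.58 with single libraries left out. That of Adam10 ranged from -0.89 to 0.048 with single libraries left out, Adam15 turned to 0.16 with TMM scaling and library 5 left out, and Mmp11 to 0.03 with library weights. The cause of these changes was not tested. With library weights 6 of the 8 tested MMPs were below 0. The log2 change of Timp1 lay between -4.75 and -2.98 and that of Adam8 between -3.63 and -1.82 in all settings in which they were tested. Adjusted p ranged from 0.000358 to 0.487 for Timp1 and from 2.05e-05 to 0.294 for Adam8. No paired analysis was possible because the groups share no replicate number. Values near 0 rest on few fragments.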

Other observations

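The values here were looked at after those of the report and carry no test. The summed MMP level as a percentage of the summed TIMP level was 9.87%, 11.8%, 4.83% and 4.93% after hypoxia and 14.4%, 11.9%, 27.9% and 29.0% after normoxia. With Timp1 left out of the TIMP sum it was 4.85% to 12% after hypoxia and 14.2% to 88.8% after normoxia, the highest in normoxia library 5.

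Below the level tested, the groups did not overlap in 2 of 36 members, both lower after hypoxia, against 1.21% of all genes below that level that were lower without overlap. Mmp27, one of the chromosome 9 genes, was listed at 0 in all 4 hypoxia libraries and at 0.12, 0.09, 0.39 and 0.20 FPKM after normoxia, on an estimated 1.9 to 12.5 fragments. Adamts12, which cuts cartilage oligomeric matrix protein, was at 0.32, 0.28, 0.12 and 0.12 FPKM after hypoxia and 0.57, 0.69, 1.08 and 0.48 FPKM after normoxia.

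Within the hypoxia group, libraries 1 and 2 were both above libraries 3 and 4 in 21 of the 30 tested members, against 79.1% of all tested genes. Normoxia library 7 was the highest of the 8 libraries in 19 of the 30, and library 5 was the highest in 4 and the lowest in 8.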
